A study of Mus musculus with 8 samples.

Results

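H/ACA box small nucleolar RNAs (snoRNAs) and small Cajal body RNAs (scaRNAs) were followed in mouse bone marrow-derived macrophages (BMDMs) with and without withdrawal of M-CSF (Macrophage-Colony Stimulating Factor), the growth factor that keeps these cells alive. They were chosen by name, as every feature of snoRNA type whose Ensembl transcript has a mouse symbol starting with Snora or Scarna. There were 48 such RNAs, 39 Snora and 9 Scarna, among 526 snoRNA features and 3514 features of all kinds. Of the 48, 46 were listed in both tables of the study, Snora43 in the Ion Proton table alone and Snora23 in the SOLiD table alone. All groups were BMDMs of C57BL/6J mice, which per the methods of the study were 10-week-old males, and the labels name no transgene or deletion. Control cells received no treatment, and the other cells were incubated for 36 h without M-CSF, an apoptotic stimulus. Sequenced on the Ion Proton were 4 total RNA libraries, 2 per condition, which the methods describe as biological replicates. Sequenced on the SOLiD were 2 total RNA libraries and 2 libraries made from gel-cut RNA of 25 to 40 nt, with 1 per condition in each pair.

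H/ACA box snoRNAs fold into a pair of hairpins joined by a hinge, the H box, and end with the letters ACA close to their 3' end. Bound to dyskerin, Nhp2, Nop10 and Gar1, they guide the conversion of chosen uridines of ribosomal RNA into pseudouridines. Most lie in introns of genes for ribosomal proteins, translation factors or spliced non-coding RNAs and are released from the excised intron. scaRNAs do the like for spliceosomal snRNAs in Cajal bodies, and may be of the H/ACA type, of the C/D type that guides ribose methylation, or both. The libraries hold short reads, so that a value here counts fragments of these RNAs and not whole molecules, and the tables do not say where in an RNA the reads lie.

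The sequences fitted the names for the Snora set and only in part for the Scarna set. The letters ACA stood exactly 3 bases before the 3' end in 32 of 39 Snora RNAs, in 2 of 9 Scarna RNAs (Scarna8 and Scarna13) and in 0 of 78 C/D box snoRNAs (Snord symbols). Outside these classes they stood there in 40.2% of 396 other snoRNA features with a sequence and in 0.358% of 559 snRNAs. Both a C box (TGATGA in the first 20 bases) and a D box (CTGA in the last 20 bases), searched on the sense strand, were found in Scarna6, Scarna9, Scarna10 and Scarna17, in 0 of 39 Snora RNAs and in 61.5% of the C/D box snoRNAs. The Scarna features are therefore described by name and not as H/ACA RNAs. The RNAs were 70 to 414 nt long, with a median of 132 nt for the Snora set. In the GENCODE annotation of the same build, mm10, hosts were sought among protein-coding and long non-coding genes of the same strand that contain the whole RNA. By this rule 11 lay in genes for ribosomal proteins (such as Rpsa, Rpl32 and Rpl23) and 10 in spliced non-coding host genes (such as Snhg12, Snhg3 and Snhg8). Another 22 lay in other genes and 5 had no such host. Snora73a and Snora73b, placed under Snhg3, also lie in Rcc1. Snora74a, placed under other genes, also lies in a non-coding gene.

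Depth was 6053130 to 7760142 reads on listed features in the Ion Proton libraries and 4039837 to 12178454 in the SOLiD libraries. A count of 0 allows up to 3 counts, 0.387 to 0.496 counts per 1000000 listed reads (CPM) in the Ion Proton run. Of 6 chosen myeloid miRNAs, 4 were listed under the same name in both tables. They summed to 50372 to 384727 CPM or RPM (reads per 1000000 listed reads, the SOLiD unit) per library. Most of that sum was miR-21a-5p, at 42646 to 63063 CPM in the Ion Proton run and 61224 to 359445 RPM in the SOLiD run. In the Ion Proton run miR-146a-5p had 7436 to 9638 CPM, miR-155-5p 177 to 222 CPM and miR-223-3p 66.9 to 96.5 CPM. In the SOLiD run miR-223-3p had 4473 to 11725 RPM. Of the 13 miRNAs chosen to mark other cells, the 8 listed in both tables summed to 26.7 to 37.2 CPM in the Ion Proton run but to 3759 to 5968 RPM in the 4 SOLiD libraries. The largest of these was the erythroid miR-451a, at 2394 to 3988 RPM. The epithelial miR-205-5p, at 3547 to 5586 RPM in the SOLiD libraries, and the muscle miR-133a-3p have no row in the Ion Proton table, and miR-1a-3p and miR-124-3p have one in neither. The part that RNA of other cells had in the SOLiD values below was not tested. The RNA integrity number was 8.4 in the control and 7.5 in the M-CSF withdrawal sample of SOLiD total RNA, and 8.4 to 8.9 in the Ion Proton samples.

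In these bulk samples, fewer cells of a type and less RNA per cell cannot be told apart. As a group, these RNAs took a small share of reads, which differed little between conditions in the Ion Proton run and was higher after M-CSF withdrawal in both SOLiD pairs. Of the listed Ion Proton reads they took 0.156% and 0.140% in control cells and 0.146% and 0.156% after M-CSF withdrawal. The means were 0.148% ± 0.0116 and 0.151% ± 0.00685 (SD, n = 2), and the groups overlapped (exact two-sided permutation test, p = 1, where the smallest possible p is 0.333). In SOLiD total RNA the share was 0.0490% in control cells (95% Wilson interval 0.0472 to 0.0508) and 0.133% after M-CSF withdrawal (0.131 to 0.135). In the 25 to 40 nt RNA it was 0.0307% (0.0296 to 0.0319) and 0.0906% (0.0877 to 0.0936). These intervals cover counting error only.

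The direction of that share depended on what it was divided by. As a share of reads other than miRNA, the group went from 0.262% and 0.240% to 0.209% and 0.224% in the Ion Proton run, from 0.275% to 0.227% in SOLiD total RNA and from 0.244% to 0.165% in the 25 to 40 nt RNA, lower after M-CSF withdrawal each time. Relative to C/D box snoRNAs, a ratio within each library, there were 3.62 and 3.68 reads per 100 C/D reads in the Ion Proton controls and 3.97 and 4.24 after M-CSF withdrawal. The groups did not overlap, with means of 3.65 ± 0.0390 and 4.10 ± 0.192 (SD, n = 2; exact two-sided permutation test, p = 0.333, the smallest possible). The ratio went from 2.57 to 4.53 in SOLiD total RNA and from 5.34 to 4.34 in the 25 to 40 nt RNA, so that the pairs of the SOLiD run moved in opposite directions.

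**Figure D1:**
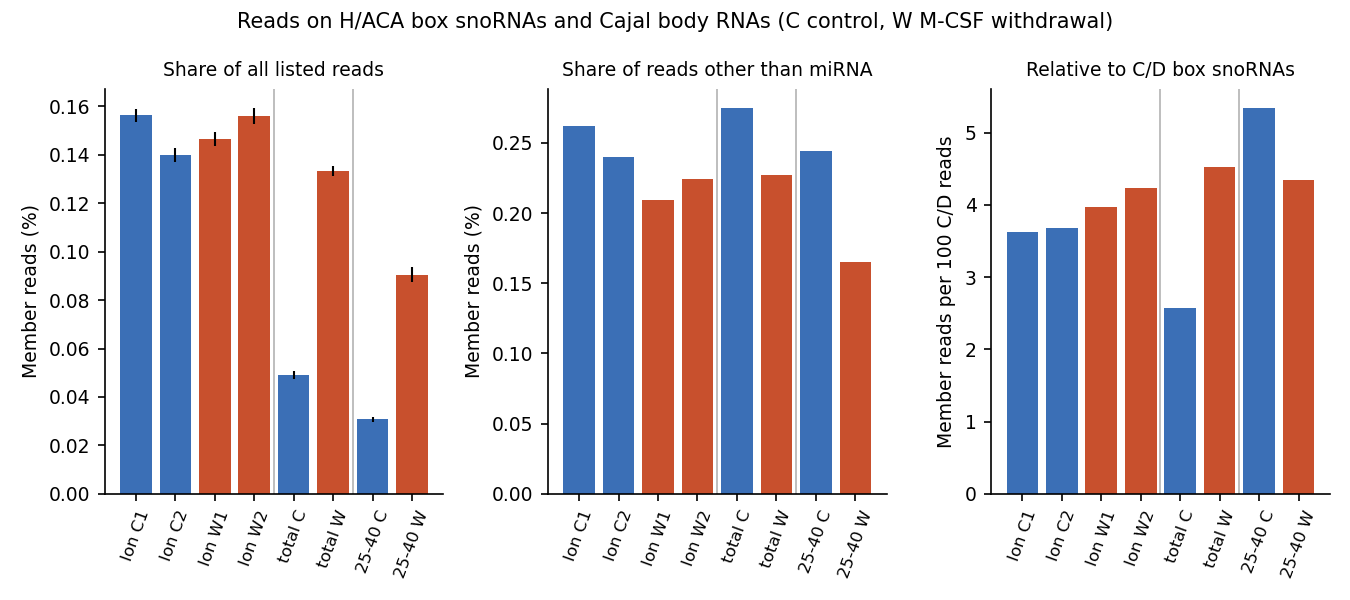
Reads on the 48 RNAs in each library as a percent of all listed reads (left, bars with 95% Wilson intervals), as a percent of reads other than miRNA (middle) and per 100 reads on C/D box snoRNAs (right), with control libraries in blue and M-CSF withdrawal libraries in red. The left panel rises in the SOLiD pairs only, from 0.0490% to 0.133% in total RNA, whereas the middle panel is lower after M-CSF withdrawal in all 3 sets of libraries.

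In the Ion Proton run a few RNAs held most of the reads. The 3 most read, Snora31, Snora62 and Snora44, held 65.5% of the summed CPM, 13 RNAs had a mean of at least 10 CPM and 36 a mean of at least 1 CPM. Per length, the order in control cells was led by Snora31 with 4691 CPM per kilobase, then Snora44 with 1745, Scarna17 with 972, Snora41 with 926 and Snora62 with 757. In M-CSF withdrawal cells Snora31 was still first, with 3204 CPM per kilobase, and Snora62 was second with 2779. The SOLiD run gave another order. In its control library of total RNA Scarna9 was first with 470.2 RPM per kilobase, followed by Snora61 with 318 and Snora7a with 286, while Snora31 was 25th with 34.6. Over the 46 RNAs in both tables the control levels per kilobase had a Spearman rho of 0.354, given as a description since the RNAs are not independent replicates and the library kits differ.

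**Figure D2:**
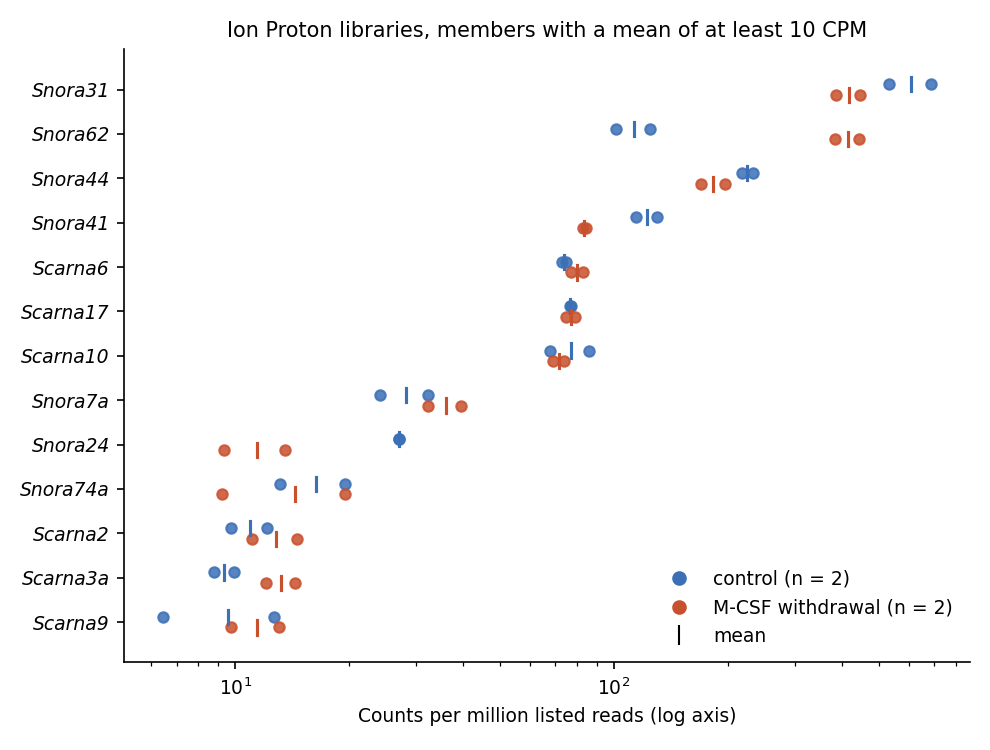
CPM of the 13 RNAs with a mean of at least 10 CPM in the 4 Ion Proton libraries, on a log axis, with control libraries in blue, M-CSF withdrawal libraries in red and vertical bars for the mean of 2 libraries. Snora62 is the one RNA whose M-CSF withdrawal libraries (384 and 444 CPM) lie far above the controls (125 and 101 CPM), whereas Snora24, Snora41, Snora31 and Snora44 lie below their controls and Scarna3a (14.4 and 12.1 against 9.92 and 8.77 CPM) lies above.

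Snora62 rose after M-CSF withdrawal in the Ion Proton run and had higher values in both SOLiD pairs. Snora62, also known as E2, is encoded in an intron of Rpsa, the gene of a protein of the small ribosomal subunit. It had 125 and 101 CPM in the control libraries of the Ion Proton run and 384 and 444 CPM after M-CSF withdrawal (967 and 726 reads against 2505 and 2687). The groups were well apart, with means of 113 ± 16.6 and 414 ± 42.3 CPM (SD, n = 2), a ratio of 3.67. The log2 fold change was 1.93 ± 0.150 (SE), with an adjusted p of 0.00273 by edgeR's quasi-likelihood test. In the SOLiD run Snora62 went from 8.49 to 67.1 RPM in total RNA (49 and 817 reads), a ratio of 7.90 with a 95% counting interval of 5.92 to 10.8. In the 25 to 40 nt RNA it went from 3.82 to 61.1 RPM, a ratio of 16.02 (11.2 to 23.7). The difference between the runs was 0.97 ± 0.256 (SE) for Snora62 on the log2(value + 1) scale and did not pass the threshold (limma adjusted p = 0.0511). None of the other listed features with a sequence (2741 of 3514 have one) shared a stretch of 18 nt with it.

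Of the 45 RNAs tested in the Ion Proton run, Snora62 alone rose, Snora24 and Snora41 fell and the other 42 did not pass the threshold. Among all 2029 features tested, 15.7% rose and 8.97% fell. Their median log2 fold change was 0.17, beside 0.08 over all features and 0.10 over 77 C/D box snoRNAs, of which 15 rose and 3 fell. By CPM alone, the M-CSF withdrawal libraries were both above the controls for 12 of the 45 and both below for 8, where the shares over all features were 33.4% and 28%. Snora2b and Snora19 were left untested, with 3 and 2 reads over the 4 libraries. With scaling factors taken from miRNAs alone, which shifted the median of all features by 0.33, the calls became Snora62 and Scarna6 higher and none lower. The log2 fold change was then -0.86 for Snora24 (edgeR adjusted p = 0.0713) and -0.16 for Snora41 (edgeR adjusted p = 0.332).

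Snora24 lies in Snhg8, a spliced non-coding host gene, at chr3:123507937-123508066 on the minus strand (mm10), and Snora41 lies in Eef1b2, a translation elongation factor gene, at chr1:63179004-63179135 on the plus strand. Their sequences are shown as the RNAs that fell, with the ACA box in capitals.
Snora24: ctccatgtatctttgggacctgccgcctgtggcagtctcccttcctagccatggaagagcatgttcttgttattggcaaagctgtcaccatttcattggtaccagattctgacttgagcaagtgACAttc
Snora41: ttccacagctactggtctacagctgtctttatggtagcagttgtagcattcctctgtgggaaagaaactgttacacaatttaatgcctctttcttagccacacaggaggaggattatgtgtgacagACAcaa
Snora24 had 27.1 and 27.2 CPM in control cells and 9.35 and 13.5 CPM after M-CSF withdrawal. Its libraries did not overlap, and the log2 fold change was -1.19 ± 0.219 (SE; edgeR adjusted p = 0.0219). In the SOLiD run it went the other way in total RNA, from 7.28 to 15.8 RPM, and from 16.4 to 13.4 RPM in the 25 to 40 nt RNA. Snora41 had 114 and 130 CPM in control cells and 84.3 and 82.8 CPM after M-CSF withdrawal, with a log2 fold change of -0.50 ± 0.104 (SE; edgeR adjusted p = 0.0319). A listed copy, Gm23723, which shares 70 stretches of 18 nt with Snora41, had 57.6 and 59.0 CPM in control cells and 41.1 and 39.98 CPM after M-CSF withdrawal. Since up to 10 places were reported per read, the values of both cannot be told apart. Without M-CSF withdrawal replicate 1, Snora62 was the only call left (edgeR adjusted p = 0.0722 for Snora24 and 0.154 for Snora41), and Snora41 was also lost without control replicate 2 (edgeR adjusted p = 0.0581) or M-CSF withdrawal replicate 2 (edgeR adjusted p = 0.146).

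Snora31 and Snora44, the most read RNAs besides Snora62, had lower values after M-CSF withdrawal without passing the threshold. Snora31, in an intron of Tpt1 at chr14:75847905-75848034 on the plus strand, had 689 and 531 CPM in control cells and 386 and 447 CPM after M-CSF withdrawal, with a log2 fold change of -0.50 ± 0.164 (SE; edgeR adjusted p = 0.103). Its groups did not overlap, and the control libraries were further apart than the M-CSF withdrawal libraries. It passed with DESeq2 (adjusted p = 0.000197), with scaling to C/D box snoRNAs (edgeR adjusted p = 0.0346) and without control replicate 2 (edgeR adjusted p = 0.0261). It is shown as the most read RNA of the Ion Proton run, with the ACA box in capitals.
Snora31: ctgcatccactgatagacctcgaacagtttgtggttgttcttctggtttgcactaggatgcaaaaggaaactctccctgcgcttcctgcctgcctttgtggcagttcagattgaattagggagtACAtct
Snora44, in Snhg12, had 218 and 232 CPM in control cells and 169 and 197 CPM after M-CSF withdrawal (log2 fold change -0.24 ± 0.116, SE; edgeR adjusted p = 0.226). Snora7a, within an annotated exon of Rpl32, had 32.3 and 24.1 CPM in control cells and 39.6 and 32.4 CPM after M-CSF withdrawal, and the groups lay next to each other. Its SOLiD values were alike between conditions, with 40.02 and 35.6 RPM in total RNA and 37.1 and 34.2 RPM in the 25 to 40 nt RNA. Snora74a, also known as U19, had 13.1 and 19.5 CPM in control cells and 19.5 and 9.25 CPM after M-CSF withdrawal, with groups that overlapped.

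Among the scaRNAs, none of the 9 tested changed in the Ion Proton run, with log2 fold changes from -0.07 to 0.55 and a median of 0.17, and 1 had an unadjusted p under 0.05. Scarna17, also known as U91 and of the C/D type, had 77.1 and 76.5 CPM in control cells and 79.1 and 74.5 CPM after M-CSF withdrawal. Scarna6, also known as U88, which joins both box types, had 73.1 and 74.8 CPM in control cells and 83.1 and 77.2 CPM after M-CSF withdrawal, so that its groups lay next to each other (edgeR adjusted p = 0.277). Scarna10, also known as U85, a guide for U5 snRNA, had 86.0 and 68.0 CPM in control cells and 73.9 and 69.2 CPM after M-CSF withdrawal. For Scarna10 and Scarna17 the groups overlapped. Scarna2, a guide for U2 snRNA, had 12.1 and 9.75 CPM in control cells and 14.6 and 11.1 CPM after M-CSF withdrawal, and Scarna9, another guide for U2 snRNA, had 6.44 and 12.7 CPM in control cells and 13.0 and 9.75 CPM after M-CSF withdrawal. In both the groups overlapped. Scarna13, also known as U93, had 0, 1.39, 0.613 and 0.826 CPM in the 4 libraries, close to the limit of detection.

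The 6 total RNA libraries of both runs were then fitted together, 3 per condition, with the run as a term, and among the 44 of these RNAs tested Snora62 was the one call. Over all 1701 features 17.3% passed, 11.6% higher and 5.7% lower. Snora62 had a log2 difference of 2.19 ± 0.267 (SE) on the log2(value + 1) scale (limma adjusted p = 0.00732). This call was lost without Ion Proton control replicate 2, M-CSF withdrawal replicate 1 or M-CSF withdrawal replicate 2 (limma adjusted p = 0.0704, 0.0723 and 0.0617), while the difference stayed between 1.87 and 2.37. The median over the 44 RNAs was 0.30, beside 0.17 over all features and 0.17 over the C/D box snoRNAs. When each library was centred on its median, the median over the 44 RNAs was -0.01, beside -0.14 over all features.

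In the SOLiD pair of total RNA, which has no replicates, most of these RNAs had a higher RPM after M-CSF withdrawal. Of the 47 RNAs listed, 39 had a higher and 8 a lower RPM after M-CSF withdrawal, and the 95% counting interval of the ratio lay above 1 for 24 and below 1 for 2. Of all 2878 features listed in the SOLiD run, 54.8% had a higher and 44.6% a lower RPM, and the interval lay above 1 for 29.2% and below 1 for 20.9%. Of the 78 C/D box snoRNAs, 66.7% had a higher and 33.3% a lower RPM. For these the interval lay above 1 for 62.8% and below 1 for 23.1%. The median log2 ratio of RPM plus 1 was 0.60 over the 47 RNAs, beside 0.11 over all features, 0.52 over C/D box snoRNAs and -0.29 over miRNAs. Among the 25 RNAs with at least 10 RPM in 1 of these libraries, 15 were past 2-fold higher and 1, Scarna9, past 2-fold lower, where 42.1% and 14.1% of all features that passed this minimum were. Of the 15, 9 were under 10 RPM in control and passed this minimum through the M-CSF withdrawal library alone, so that this count is a description. The median over miRNAs moved the other way. RPM are parts of a library total that holds the miRNA reads, and the part this had in the higher RPM was not tested.

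The most read RNA of the SOLiD run was Snora73b, with 43.8 RPM in control and 353 RPM in M-CSF withdrawal total RNA, a ratio of 8.05 (95% counting interval 7.09 to 9.17). Snora73b and Snora73a, also known as U17, are needed for cleavage of the ribosomal RNA precursor rather than for its modification, and lie side by side in Snhg3. They share 128 stretches of 18 nt, so that the counting could split their reads. Snora73a went from 27.0 to 65.9 RPM, a smaller ratio of 2.44 (2.05 to 2.91) that did not overlap that of Snora73b. In the Ion Proton run Snora73b had 6.83 and 3.76 CPM in control cells and 5.37 and 3.80 CPM after M-CSF withdrawal, with groups that overlapped, and Snora73a had 8.38, 4.18, 6.13 and 6.28 CPM. Snora81, in Eif4a2, went from 41.2 to 181 RPM, but so did its listed copy Gm22519, from 37.6 to 165 RPM, with which it shares 125 stretches of 18 nt. Snora65, in Rpl12, went from 3.12 to 10.8 RPM in total RNA and from 7.07 to 3.71 RPM in the 25 to 40 nt RNA, and had 0.975 to 1.53 CPM in the Ion Proton libraries. Scarna9 went from 32.9 to 14.2 RPM in total RNA, a ratio of 0.432 (0.349 to 0.533), but from 1.12 to 5.94 RPM in the 25 to 40 nt RNA.

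The effect of M-CSF withdrawal differed between the runs for 9 of the 44 RNAs tested, and in all 9 it was higher in the SOLiD run. In this test, the interaction of treatment with run in limma, 26% of 1701 features passed, 21% higher and 5% lower in the SOLiD run. The 9 of 44 are thus not above the share over all features. The differences between the runs, on the log2(value + 1) scale, ranged from 0.84 for Scarna6 to 3.30 for Snora16a. The spread came from the Ion Proton libraries alone, so that the lone SOLiD libraries are assumed to vary like them. Without Ion Proton control replicate 1 or control replicate 2 the calls were 2 and 3, and without M-CSF withdrawal replicate 1 or 2 they were 0. When libraries were centred on their median, 7 remained higher and Snora61 was lower. Run, library kit, read length and RNA samples changed together, so that they cannot be told apart here.

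The 5 largest differences between runs belonged to Snora16a (in Snhg12), Snora75 (in Ncl, the nucleolin gene), Snora73b, Snora20 (in Tcp1, a chaperonin gene) and Scarna10. The first 4 are shown here as the RNAs on which the runs differ most, with the ACA box in capitals.
Snora16a: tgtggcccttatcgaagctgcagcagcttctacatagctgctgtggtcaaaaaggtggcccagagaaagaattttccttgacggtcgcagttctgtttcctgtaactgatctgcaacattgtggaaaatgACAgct
Snora75: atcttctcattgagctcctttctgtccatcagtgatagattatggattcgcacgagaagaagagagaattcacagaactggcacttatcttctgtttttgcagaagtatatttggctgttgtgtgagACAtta
Snora73b: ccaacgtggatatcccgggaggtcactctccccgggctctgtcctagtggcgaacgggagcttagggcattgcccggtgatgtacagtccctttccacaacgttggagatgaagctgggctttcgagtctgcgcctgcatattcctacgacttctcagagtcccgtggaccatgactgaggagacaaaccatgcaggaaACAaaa
Snora20: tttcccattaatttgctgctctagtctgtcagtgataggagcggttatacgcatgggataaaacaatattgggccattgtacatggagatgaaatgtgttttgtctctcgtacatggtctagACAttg
They lie at chr4:132309465-132309600 (plus strand), chr1:86351169-86351301 (minus), chr4:132352322-132352526 (minus) and chr17:12922790-12922917 (plus), and Scarna10 lies in Ncapd2 at chr6:125186359-125186683 (minus). Snora16a had 7.22 and 9.47 CPM in the Ion Proton controls and 5.67 and 2.31 CPM after M-CSF withdrawal, but went from 4.16 to 24.7 RPM in SOLiD total RNA (limma adjusted p of the difference = 0.0272). Snora75 had 3.09 and 4.73 CPM in the Ion Proton controls and 2.15 and 2.48 CPM after M-CSF withdrawal, but went from 10.4 to 74.8 RPM (limma adjusted p = 0.00785). In both, the Ion Proton values were lower after M-CSF withdrawal without overlap and the SOLiD values were higher. Snora20 had 1.42 and 1.39 CPM in the Ion Proton controls and 0.920 and 1.98 CPM after M-CSF withdrawal, which is 6 to 12 reads a library, and went from 3.47 to 25.2 RPM in the SOLiD run (limma adjusted p = 0.0239). Scarna10, flat in the Ion Proton run, went from 16.5 to 75.1 RPM (limma adjusted p = 0.00565).

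**Figure D3:**
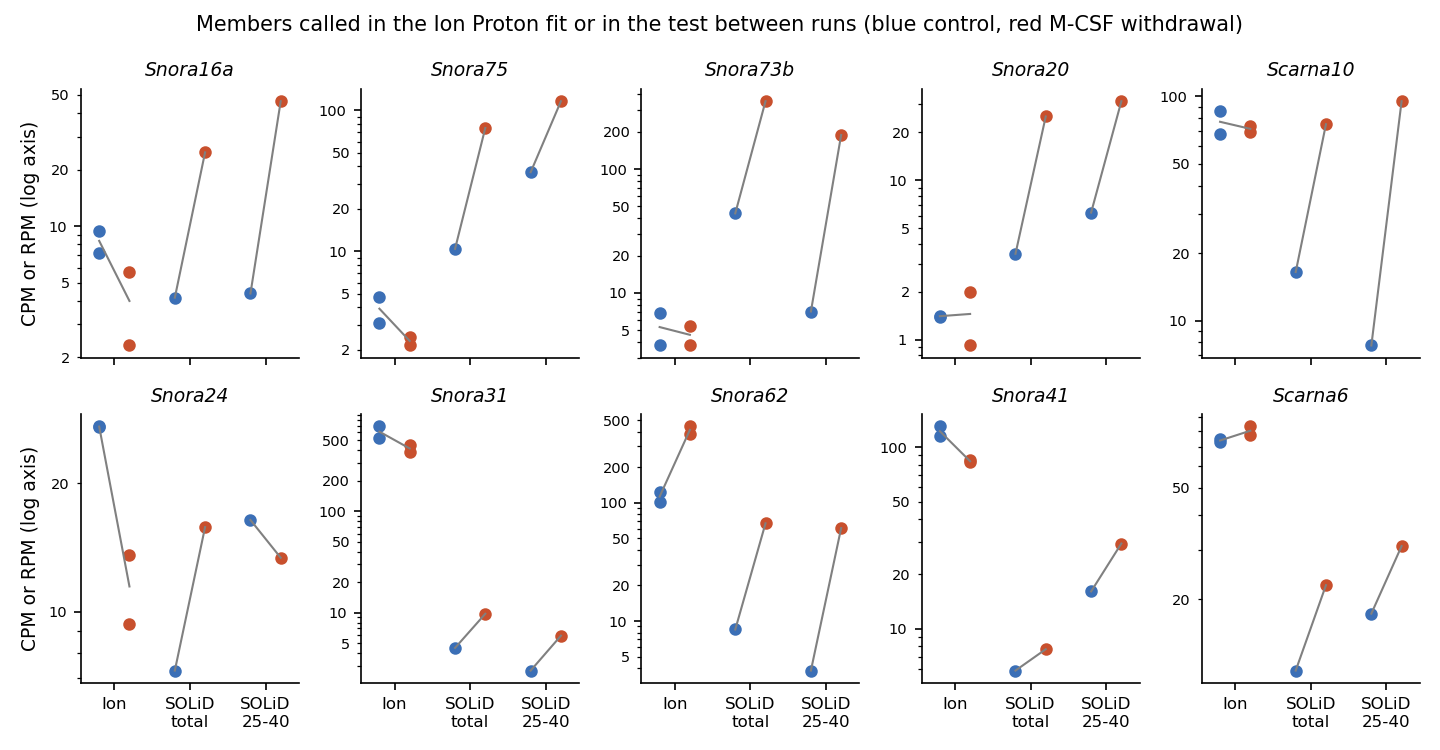
Values in all 8 libraries of the 10 RNAs that passed the Ion Proton test or the test between runs, as CPM (Ion Proton) or RPM (SOLiD) on log axes that differ between panels, with control in blue, M-CSF withdrawal in red and lines joining the means or single values. Snora62 goes up in every set of libraries, whereas Snora16a, Snora75, Snora24, Snora31 and Snora41 go down in the Ion Proton run and up in SOLiD total RNA.

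**Figure D4:**
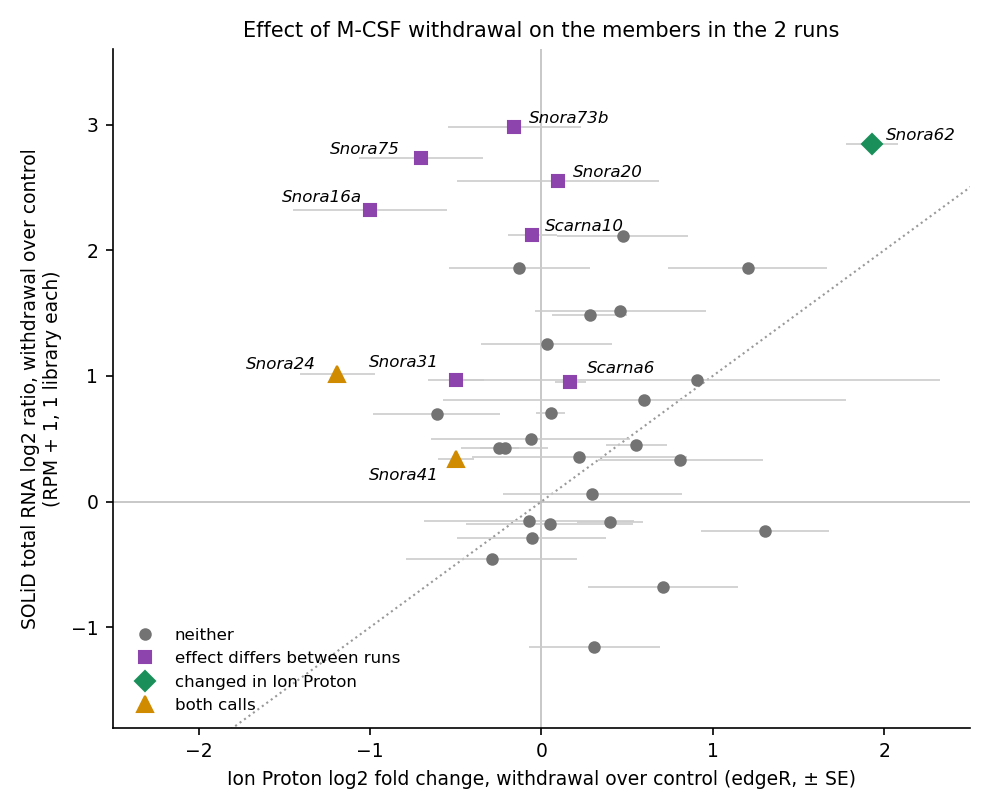
Log2 fold change of the Ion Proton run (horizontal axis, edgeR estimate with an SE derived from its F statistic) against the log2 ratio of RPM plus 1 in SOLiD total RNA (vertical axis, no replicates) for the 35 RNAs in both tables with a mean of at least 1 CPM, where the dotted line marks equal values. Snora62, at 1.93 and 2.84, stands apart at the upper right, and the RNAs whose effect differed between runs lie above the dotted line.

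The 25 to 40 nt libraries were made by the study to look for cleaved RNA, and most of these RNAs had a lower RPM there than in total RNA. The RPM was lower in the 25 to 40 nt library than in total RNA for 34 of 47 RNAs in control cells and for 34 of 47 after M-CSF withdrawal, with median log2 ratios of -0.74 and -0.52. Over all features the shares were 56.4% and 50.4%, with medians of -0.10 and -0.018, and over C/D box snoRNAs the medians were -2.07 and -1.47. Snora75 was an exception, with 36.4 RPM in the 25 to 40 nt and 10.4 RPM in the total RNA of control cells, and 116 and 74.8 RPM after M-CSF withdrawal. Snora41 was another, with 16.05 against 5.89 RPM in control cells and 29.5 against 7.72 RPM after M-CSF withdrawal. Among the 23 RNAs with at least 10 RPM in 1 of the 25 to 40 nt libraries, 11 were past 2-fold higher after M-CSF withdrawal and 1, Scarna13 (12.6 and 4.46 RPM), past 2-fold lower, where 50.7% and 12% of all features that passed were. Of the 11, 10 were under 10 RPM in control. Over all 47 RNAs the median log2 ratio was 0.77, beside 0.28 over all features and 1.43 over C/D box snoRNAs. Snora73b went from 7.07 to 188 RPM, a ratio of 26.6 (20.6 to 35.0), and Scarna10 from 7.74 to 95.1 RPM, a ratio of 12.3 (9.48 to 16.1). Over all 47 RNAs, 31 were higher after M-CSF withdrawal in both SOLiD pairs, where 42.5% of all features and 64.1% of C/D box snoRNAs were.

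Some of these RNAs also carry mature miRNAs, and 9 listed miRNAs overlapped 6 of them by coordinates, strand not considered. For miR-1940, which overlaps Snora47, no position within the RNA was found. The others have a position in the sequence of their RNA. Snora36b, in Rab3gap2 at chr1:185242907-185243038 on the plus strand, holds both arms of miR-664, Scarna3a, at chr1:159340283-159340422 on the plus strand, those of miR-1843b, and Scarna3b, at chr12:80391613-80391751 on the minus strand, those of miR-1843a. They are shown with the mature miRNAs in capitals, because these stretches were counted apart from the rest.
Snora36b: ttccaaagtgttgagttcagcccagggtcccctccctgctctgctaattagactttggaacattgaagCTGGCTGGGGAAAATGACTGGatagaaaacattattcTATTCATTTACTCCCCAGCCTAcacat
Scarna3a: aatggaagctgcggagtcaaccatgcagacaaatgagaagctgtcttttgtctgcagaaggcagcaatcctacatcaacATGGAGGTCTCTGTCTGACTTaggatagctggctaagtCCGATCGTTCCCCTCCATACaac
Scarna3b: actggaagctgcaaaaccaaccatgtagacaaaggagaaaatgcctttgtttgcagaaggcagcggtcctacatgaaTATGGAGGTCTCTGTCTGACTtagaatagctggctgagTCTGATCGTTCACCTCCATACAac
The arms with the most reads are shown with the seed (bases 2 to 8) in capitals.
miR-1843a-5p: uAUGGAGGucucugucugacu
miR-1843b-5p: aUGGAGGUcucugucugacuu
miR-664-5p: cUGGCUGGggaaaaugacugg
miR-664-3p: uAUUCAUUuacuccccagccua

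The miRNA within Snora36b was read far more than the Snora36b feature itself. In the Ion Proton run miR-664-5p had 1011 and 867 reads in control cells and 651 and 595 after M-CSF withdrawal, while the Snora36b feature had 1, 0, 10 and 5 reads. The arms were read in opposite proportion in the 2 runs. In the Ion Proton libraries miR-664-3p had 7, 19, 21 and 10 reads, far below the 5p arm, whereas in SOLiD total RNA it had 1598 and 948 reads against 139 and 273 of the 5p arm. In the 25 to 40 nt libraries the 3p arm had 2629 and 770 reads and the 5p arm 1455 and 217. The 5p arm of miR-1843b, within Scarna3a, had 1511 and 1489 reads in the Ion Proton controls and 858 and 851 after M-CSF withdrawal, with a log2 fold change of -0.51 (edgeR adjusted p = 0.0213). The 5p arm of miR-1843a, within Scarna3b, had 1199, 1161, 737 and 718 reads, with a log2 fold change of -0.40 (edgeR adjusted p = 0.0375). Both arms of 21 nt share a stretch of 20 nt, so that their reads cannot be told apart and the falls are not separate results. Among all 2029 features 8.97% fell, and of 744 miRNAs 84 did. The Scarna3a feature itself had 9.92 and 8.77 CPM in control cells and 14.4 and 12.1 CPM after M-CSF withdrawal, the opposite order (edgeR adjusted p = 0.0963), and Scarna3b had 1.03, 3.06, 2.61 and 1.98 CPM. Snora34 had 0 to 1.07 CPM in the Ion Proton libraries and 3.81 and 6.73 RPM in SOLiD total RNA. It holds miR-1291, which had 0 to 8 reads in the Ion Proton libraries.

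**Figure D5:**
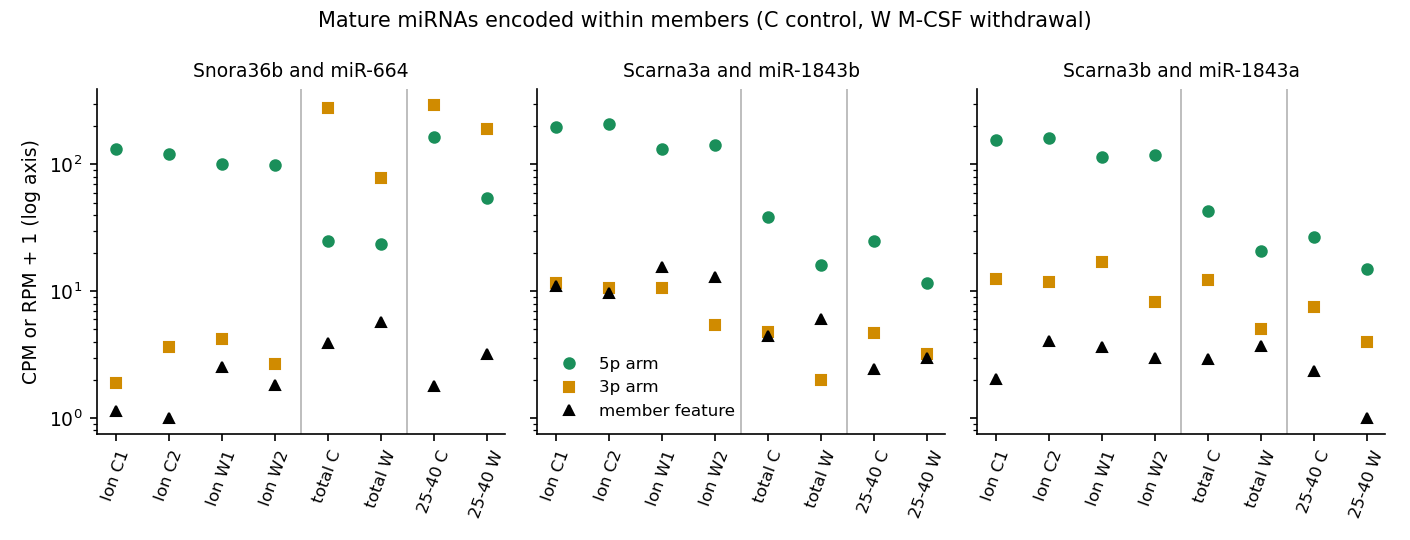
Levels of the 5p and 3p arms of miR-664, miR-1843b and miR-1843a and of the snoRNA or scaRNA feature that holds each, in the 8 libraries, as CPM or RPM plus 1 on a log axis. The 5p arm of miR-664 lies above the 3p arm in the 4 Ion Proton libraries and below it in the 4 SOLiD libraries.

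Copies limited what could be assigned to a single RNA. Of the 48, 28 shared at least 1 stretch of 18 nt with another listed feature that is no miRNA, and 20 did not, among them Snora62, Snora24, Snora7a, Snora74a, Snora16a, Snora20, Scarna2, Scarna6, Scarna9 and Scarna10. Scarna17 shared 53 such stretches with Gm25443, which had 73.8 and 72.6 CPM in control cells and 74.5 and 71.2 CPM after M-CSF withdrawal, nearly the values of Scarna17. With the 20 unshared RNAs alone, the share of listed reads in the Ion Proton run was 0.0411% and 0.0380% in control cells and 0.0674% and 0.0700% after M-CSF withdrawal, 1.74 times higher on average, and Snora62, among these 20, took more than the other 19 together after M-CSF withdrawal. Grouped by host gene, the Ion Proton median (log2) was 0.40 over 11 RNAs of ribosomal protein genes, 0.07 over 10 of spliced non-coding host genes, 0.10 over 19 of other genes and 0.30 over 5 without an annotated host. Of the 11 RNAs of ribosomal protein genes, 6 were above 0 and Snora62 alone was called. The order was another in SOLiD total RNA, among RNAs with at least 10 RPM in 1 library. There the medians were 0.33 over 7 RNAs of ribosomal protein genes, 1.25 over 7 of spliced non-coding host genes, 1.99 over 8 of other genes and 0.70 over 3 without a host. Some of these RNAs passed that minimum through the M-CSF withdrawal library alone.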

How the data were processed

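Small RNA libraries of mouse BMDMs were grouped by run, RNA and treatment as labelled. For the Ion Proton table the authors cut adapters with cutadapt 1.2.1, dropped reads under 15 bases, mapped to mm10 with bowtie2 2.2.4 at up to 10 places per read and deposited raw counts per feature. For the SOLiD run they mapped with LifeScope 2.5.1 and deposited RPM with decimal commas, another unit of value, from which whole reads were recovered for 100% of values (within 0.1 of a whole number). Features came from miRBase 21, tRNA tables and Ensembl 75. Deposited sequences and coordinates of these RNAs were the same as in GENCODE M21, which gave the symbols. The labels call the Ion Proton extract small RNA and the methods total RNA.

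CPM were computed per library total. Features whose summed count was 5 or more were tested with edgeR 4.0.16 (TMM, quasi-likelihood) for the Ion Proton run and, with that minimum in each run, with limma 3.58.1 (intensity trend, R 4.3.3) on log2(value + 1) for both runs and for the interaction. P-values were adjusted by Benjamini-Hochberg over all features, with a threshold of 0.05. The SE given with edgeR values is the absolute log2 fold change over the square root of its F statistic. It restates the test and is no separate measure of spread. SOLiD ratios have no test and exact counting intervals at 95%. Alternatives were DESeq2 1.42.0, other scalings, filters and pseudocounts, limma-voom on reads, a replicate block and leaving out libraries. The fits were run on simulated data with a fixed spread and with changes set in well-read features only. That does not test them for RNAs with few reads. Same-numbered Ion Proton replicates did not deviate together (r = 0.0422 over 1066 features). Named RNAs were the most read ones (10 in the Ion Proton run, 5 in each SOLiD set), those called, scaRNAs with at least 10 CPM or RPM, a list of known RNAs and the 5 with the largest difference between runs. The remaining ones are named as examples, chosen after their values were seen. Snora63 and Scarna15, on that list, had no feature here. The 48 RNAs and the lists were chosen with earlier results of these data known. Python 3.11.15, scipy 1.17.1 and matplotlib 3.10.9 were used. The sequence of Snora62 is not reported here.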

Additional observations from a re-analysis of the deposited data

Results flagged for a closer look

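For 9 of the 44 RNAs tested the effect of M-CSF withdrawal differed between the runs by a test of the difference itself (interaction of treatment and run, limma on log2(value + 1)). Over all 1701 features 26% passed, 21% higher and 5% lower in the SOLiD run. The 9 of 44, all higher, are thus not above the share over all features. The effect in the SOLiD run less that in the Ion Proton run was 3.30 for Snora16a, 3.28 for Snora75, 3.12 for Snora73b, 2.56 for Snora20, 2.22 for Scarna10 and 2.21 for Snora24. It was 1.51 for Snora31, 0.88 for Snora41 and 0.84 for Scarna6. Of these, Snora16a, Snora75, Snora24, Snora31 and Snora41 had lower values after M-CSF withdrawal in the Ion Proton run and higher values in SOLiD total RNA. The SOLiD run has 1 library per condition, whose spread was not measured and is assumed to be that of the Ion Proton libraries, and leaving out any 1 Ion Proton library gave 0 to 3 calls. Platform, kit and RNA sample changed together between the runs and cannot be told apart.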

How the results depend on the processing

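Counts of calls moved most with the replicate block and with single libraries. In the Ion Proton run 3 RNAs were called, 1 higher and 2 lower. With the replicate number as a block (replicate block) 1 was called and 0 lower (edgeR adjusted p = 0.0511 for Snora24 and 0.0625 for Snora41), and with scaling to miRNAs 2 higher and 0 lower. Calls over all 2029 features went from 500 to 361 with the block and to 414 with scaling to miRNAs. Leaving out 1 library gave 1 to 5 calls, 1 to 3 higher and 0 to 3 lower, and a median log2 fold change over the RNAs of -0.011 to 0.30. Snora62 was called in all of these fits. In both runs, with 1 call, limma-voom gave 2 calls, both higher. The replicate block gave 0 calls and 0 higher (limma adjusted p = 0.0525 for Snora62). Calls over all 1701 features were 295 in the main fit, 422 with limma-voom and 29 with the block. Leaving out 1 library gave 0 to 4 calls, 0 to 2 higher and 0 to 2 lower. The median over the RNAs was -0.011 with libraries centred on their median, where that over all features was -0.14. For the difference between runs, with 9 calls, centring gave 1 lower, and leaving out 1 library gave 0 to 3 calls, with 0 to 3 higher. The replicate numbers are shared by label alone, with a correlation of deviations of 0.0422, and the cause of the calls lost was not tested.

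Past 2-fold without a test, centring gave 2 lower in SOLiD total RNA and 6 lower in the 25 to 40 nt RNA, where the median log2 ratio became -0.18. The share of reads, M-CSF withdrawal over control, was 1.02 in the Ion Proton run, 2.72 in SOLiD total RNA and 2.95 in the 25 to 40 nt RNA. It became 0.863, 0.827 and 0.676 as a share of reads other than miRNA, 1.26, 2.195 and 2.39 without the most read RNA, and 1.74, 2.34 and 2.72 over RNAs without a shared stretch, a setting chosen after seeing the data, as were those that leave out a library for the shares and for the difference between runs. Without 1 library the Ion Proton value was 0.967 to 1.08. The ratio to C/D reads, 1.13, 1.76 and 0.813, became 1.30, 1.46 and 0.637 without the most read feature of either class, and 1.91, 1.52 and 0.751 over RNAs without a shared stretch. With all other snoRNA features as the denominator it was 1.68 in SOLiD total RNA and 1.02 in the 25 to 40 nt RNA.

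Among RNAs that passed no threshold in the Ion Proton run, small log2 fold changes turned sign. With DESeq2 Snora73a was -0.072, Snora20 -0.017, Scarna17 -0.067 and Scarna13 -0.055. With scaling to C/D box snoRNAs Snora73a was -0.039, Scarna17 -0.030 and Scarna13 -0.021, and with library totals Snora73a was -0.022. With scaling to miRNAs Snora44 was 0.084, Snora73b 0.16, Snora74a 0.21 and Scarna10 0.27. Leaving out 1 library gave Snora73a -0.37 to 0.51, Snora20 -0.56 to 0.57, Snora73b -0.51 to 0.23, Snora74a -0.74 to 0.30, Scarna9 -0.21 to 0.88, Snora81 -0.016 to 0.99, Scarna17 -0.053 to 0.083, Scarna13 -0.996 to 5.34 and Scarna10 -0.20 to 0.015. Depth limits the RNAs with fewer than 10 reads a library, and SOLiD ratios have no replicate.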
